A study of Populus ussuriensis with 12 samples.

Results

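The genes described here were lower in wild-type poplar roots on PEG than on control medium, and were also lower in nontreated roots that overexpressed PuC3H35 than in nontreated wild-type roots. They numbered 167 of the 35907 gene identifiers measured. They were chosen from the expression values themselves, as mean log2(FPKM + 1) over the 3 libraries of a group, where FPKM is fragments or reads of a gene scaled to its length and to the library total. A gene was taken when WT on PEG was at least 1 unit (2-fold on this scale) below WT on control medium, OE on control medium was also at least 1 unit below WT on control medium, OE on PEG was above WT on PEG minus 0.75 unit, and the highest group mean was at least 5 FPKM. The falls below WT on control medium are therefore what defined the set, and the values below describe them without testing them.

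The plants were *Populus ussuriensis*, grown in vitro, and whole roots were sequenced as bulk RNA. The groups were PuC3H35-OE roots on 6% PEG6000 (OE on PEG, libraries 1, 3 and 4), WT roots on 6% PEG6000 (WT on PEG, libraries 1, 2 and 3), nontreated PuC3H35-OE roots (OE on control medium, libraries 1, 2 and 5) and nontreated WT roots (WT on control medium, libraries 1, 2 and 3). Plants of every group were 7 days old when moved to fresh half-strength Murashige and Skoog medium with or without PEG6000, and were sampled 7 days later. The medium of every group held 0.6% agar and 2% sucrose. The labels name neither the promoter that drives PuC3H35 nor the transgenic lines used, so the effect of the gene and that of a transgenic line cannot be told apart, and they do not say whether libraries came from separate plants.

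PEG6000 is a polymer too large to enter most plant cells, and it lowers the water potential of the medium much as drying soil does. Roots under water deficit typically slow their growth and alter wall loosening, water and ion transport and hormone signalling, and many genes of growth and transport are repressed as part of this response. PuC3H35 belongs to the CCCH zinc finger proteins, a plant family with members that bind RNA or DNA and act in stress signalling. The files pair no identifier with a gene name or product, so the members are given by identifier, no function is assigned to any of them, and neither the level of PuC3H35 nor root marker genes were checked.

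Reads recovered from the FPKM steps ran from 10566914 to 12053877 per library. Each group had 3 libraries whose log2 values correlated across genes at 0.971 to 0.989 (Pearson, genes not being independent replicates), and every replicate pair differed by more than sampling noise (chi-square per gene of 3.2 to 16.9). Members had a median of 311 reads in the WT libraries on control medium, where the fewest reads for any member were 12. In other groups some were thinly covered: 34 members had fewer than 10 reads in at least 1 library, and 6 of them had 0 reads somewhere.

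Some libraries stood apart from their groups over these genes. Library 4 of OE on PEG was the highest of its group in 112 of the 167 members (67.1%), against 35.7% of the 24976 genes tested. Library 2 of WT on control medium was the highest of its group in 105 members (62.9%), against 29.6% of the genes tested. On the low side, library 1 of WT on PEG was the highest of its group in 20 members (12%), against 30.8% of the genes tested. Library 1 of OE on PEG was so in 18 members (10.8%, against 27.9%) and library 3 of WT on control medium in 22 (13.2%, against 31.8%). Median deviations from the group mean over members were -0.16 for library 1 of WT on PEG and -0.15 for library 1 of OE on PEG. For library 1 of WT on control medium the median deviation was -0.2. The rule took genes high in WT on control medium, low in WT on PEG and above a floor in OE on PEG. A library that was high or low in that direction helps a gene to enter, so these shares partly follow from the choice of members. The rule averages these libraries with the others, and counts of calls without single libraries are given beside the main counts where the counts moved most.

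In the step from all genes to the members, 17044 genes reached 5 FPKM in their highest group. Of these, 760 were at least 1 unit lower in WT on PEG and 276 at least 1 unit lower in OE on control medium, both relative to WT on control medium, and 174 were in both lists. The bound on OE on PEG then removed 7 genes. The members thus made up 22% of the genes lowered this far in WT on PEG and 60.5% of those lowered this far in OE on control medium. Both falls are measured from the same WT libraries on control medium, so the spread of those libraries bears on both lists together. All 167 passed the filter of the genome-wide test (at least 1 FPKM in 3 libraries). At the edges of the rule, the members nearest the bound for WT on PEG had differences of -1.002 and -1.05, and the nearest genes outside it -0.999 each. For OE on control medium the nearest members had -1.004 and -1.012, and the nearest genes outside stood within 0.01 of -1. For OE on PEG minus WT on PEG the nearest members had -0.708 and -0.624, against -0.79 and -0.846 outside. In level, the nearest members had 5.01 and 5.19 FPKM and the nearest genes outside 4.98 and 4.91 FPKM. Without library 2 of WT on control medium the rule gave 133 genes, of which 116 were among the 167. Without library 4 of OE on PEG it gave 167 genes, 164 of them shared. The largest set, 238 genes with 158 shared, came without library 1 of WT on control medium. Leaving out library 1, 2 or 5 of OE on control medium gave 169, 160 and 165 genes, with 152, 135 and 145 shared.

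Across members the median level was 6.35 FPKM in OE on PEG, 4.79 FPKM in WT on PEG, 7.81 FPKM in OE on control medium and 20.7 FPKM in WT on control medium. Expressed against the mean of WT on control medium, the median member stood at 30.6% in OE on PEG, 23.5% in WT on PEG and 37.6% in OE on control medium. Together the members took 0.824% to 0.926% of the summed FPKM of the OE libraries on PEG, 0.608% to 0.764% of WT libraries on PEG, 0.849% to 1.14% of OE libraries on control medium and 2.32% to 2.66% of WT libraries on control medium. These are whole-root values, in which fewer cells of a type and less RNA per cell cannot be told apart.

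**Figure D1:**
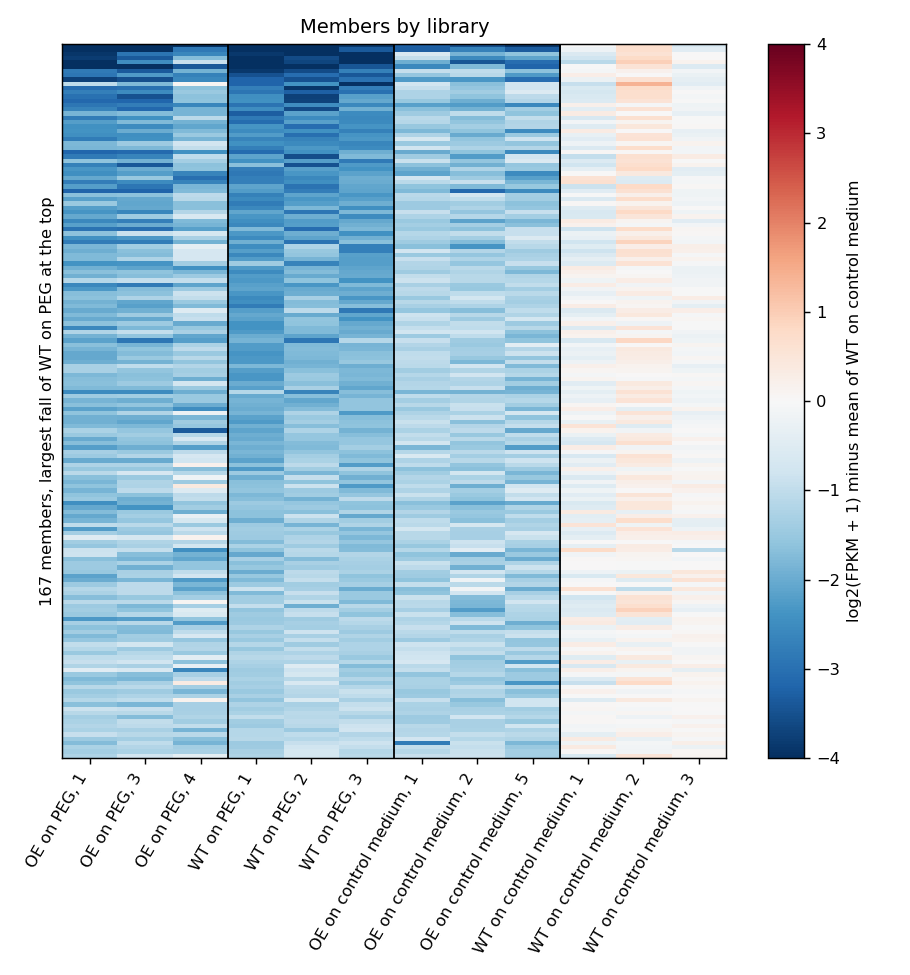
Each row is 1 of the 167 members and each column 1 library; colour is log2(FPKM + 1) minus the mean of WT on control medium, blue for lower and red for higher. The OE and WT libraries on PEG and the OE libraries on control medium are blue in most rows; library 4 of OE on PEG is paler than its group in many rows, and library 2 of WT on control medium is redder.

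The fall in OE on control medium was the smaller of the falls in most members. The median difference from WT on control medium was -1.26 for OE on control medium (from -3.57 to -1) and -1.84 for WT on PEG (from -4.72 to -1). Both differences use the same WT libraries. Taken member by member, the difference in OE on control medium was a median of 70.9% of that in WT on PEG on the log2 scale, with quartiles of 59.9% and 90.3%. In 139 members OE on control medium stood above WT on PEG, and in 28 it stood at or below it. Without overlap between libraries, 163 members were lower in WT on PEG than in WT on control medium, where 25.3% of all genes tested were. For OE against WT on control medium the count without overlap was 159, beside 13.7% of all genes tested. The limma test called 162 members lower in WT on PEG than on control medium (16.6% of all genes tested) and 152 lower in OE than in WT on control medium (7.56% of all genes tested). The limma interaction of genotype and medium was positive and called in 102 members (3.5% of all genes tested). The count for OE against WT on control medium was 112 in place of 152 without library 2 of WT on control medium, and 118 without library 3. It was 128, 123 and 124 without library 1, 2 or 5 of OE on control medium. With both library 2 of WT on control medium and library 4 of OE on PEG left out it was 137. The interaction was called in 65 members without library 1 of WT on PEG and 76 without library 3 of that group. It was called in 72 without library 2 of WT on control medium, 74 without library 3 of that group and 82 without library 4 of OE on PEG. The count was 71 without both library 4 of OE on PEG and library 2 of WT on control medium. As the rule used or nearly fixed all of these comparisons, nothing is read from the counts beyond how many members had a difference that was large relative to the spread between libraries.

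**Figure D2:**
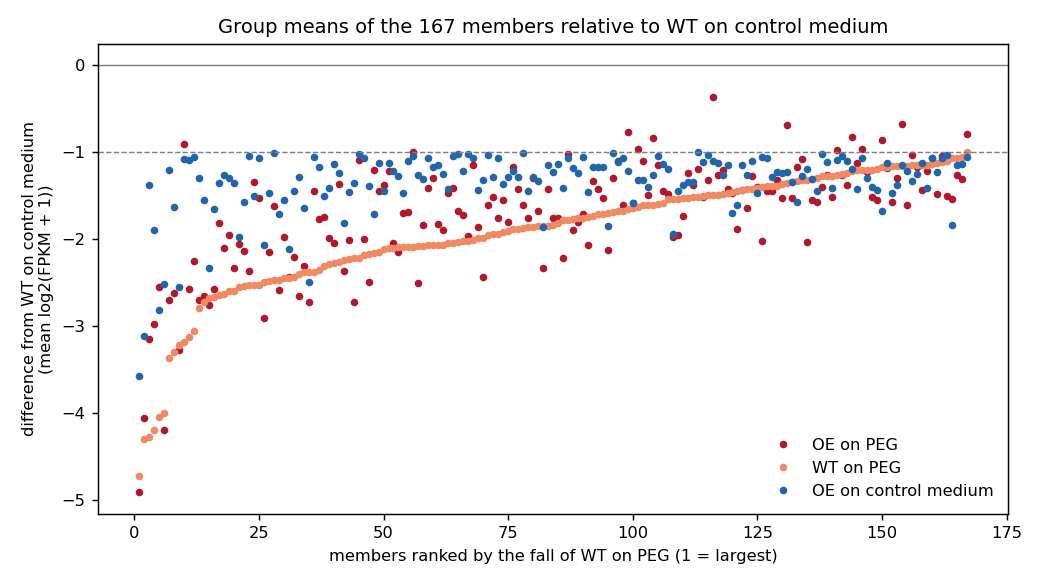
Each member is shown 3 times, as the mean log2(FPKM + 1) of OE on PEG (dark red), WT on PEG (orange) and OE on control medium (dark blue) minus that of WT on control medium (grey line at 0), with members ranked by the fall of WT on PEG. The dashed line at -1 is the bound of the rule for WT on PEG and OE on control medium; in 139 of 167 members OE on control medium lies above WT on PEG.

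The most abundant member was Potri.009G114800.v3.1. It had 2205, 2631 and 2039.9 FPKM in OE on PEG, 1043, 1502 and 1254 FPKM in WT on PEG, 2924, 2931 and 1626 FPKM in OE on control medium, and 5825, 4819 and 4601 FPKM in WT on control medium. Every WT library on control medium was above every library of the other groups, and on PEG every OE library was above every WT library. Its mean was 45.1% of that in WT on control medium in OE on PEG, 24.9% in WT on PEG and 49.1% in OE on control medium. This gene alone made up a large part of the summed FPKM of the members: without it they took 0.468% to 0.594% of the total in OE on PEG and 1.45% to 1.87% in WT on control medium.

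Potri.001G371900.v3.1, the next most abundant, varied little between replicates. It had 334, 378 and 307 FPKM in OE on PEG, 286, 371 and 368 FPKM in WT on PEG, 491, 374 and 392 FPKM in OE on control medium, and 917, 907 and 927 FPKM in WT on control medium. The OE and WT libraries overlapped on PEG, and all libraries of the 3 other groups lay well below the WT libraries on control medium. Potri.010G209900.v3.1 and Potri.009G013900.v3.1 were closer between the 3 lowered groups than Potri.001G371900.v3.1 was. Potri.010G209900.v3.1 had 369.6, 325 and 329 FPKM in OE on PEG, 319.9, 347 and 309 FPKM in WT on PEG, 318, 360.1 and 329.6 FPKM in OE on control medium, and 537, 850.4 and 761 FPKM in WT on control medium. Potri.009G013900.v3.1 had 204, 210.4 and 174 FPKM in OE on PEG, 177, 214 and 199.6 FPKM in WT on PEG, 182, 223 and 206 FPKM in OE on control medium, and 436, 439 and 457 FPKM in WT on control medium. In both genes the 3 lowered groups overlapped throughout, at means of 44.2% to 47.7% of WT on control medium.

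In a further pair of abundant members OE on PEG reached to the lower side of WT on PEG. Potri.006G065500.v3.1 had 68.4, 101 and 127 FPKM in OE on PEG, 138, 128 and 123 FPKM in WT on PEG, 119, 85.3 and 92.2 FPKM in OE on control medium, and 248, 519 and 418 FPKM in WT on control medium. Potri.014G049600.v3.1 had 85.7, 67.1 and 135 FPKM in OE on PEG, 123, 131 and 115 FPKM in WT on PEG, 127, 112 and 155 FPKM in OE on control medium, and 250.3, 491 and 373 FPKM in WT on control medium. In both genes library 4 was the highest of OE on PEG and library 2 the highest of WT on control medium, and the groups on PEG overlapped. The levels of members reached widely: 26 of 167 averaged at least 100 FPKM in WT on control medium and 36 averaged under 10 FPKM.

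Potri.001G176200.v3.1 had the largest difference in both rule comparisons. It had 2.11, 1.21 and 4.83 FPKM in OE on PEG, 2.24, 1.58 and 6.15 FPKM in WT on PEG, 9.66, 7.83 and 5.95 FPKM in OE on control medium, and 100.2, 167 and 63 FPKM in WT on control medium. Its log2 differences from WT on control medium were -3.57 in OE on control medium and -4.72 in WT on PEG. Every OE library on PEG was below every OE library on control medium.

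Potri.006G057900.v3.1 ranked next in both comparisons. It had 2.4, 1.58 and 9.21 FPKM in OE on PEG, 2.37, 1.18 and 6.32 FPKM in WT on PEG, 6.58, 10.4 and 6.5 FPKM in OE on control medium, and 63.2, 117 and 53.7 FPKM in WT on control medium. On PEG its OE and WT libraries overlapped, and library 4 of OE on PEG lay within the range of OE on control medium. Its differences from WT on control medium were -3.11 in OE on control medium and -4.3 in WT on PEG.

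Potri.013G128800.v3.1 showed the spread between replicates most clearly among the strongly lowered members. It had 5.78, 21.8 and 65.5 FPKM in OE on PEG, 5.14, 9.01 and 6.47 FPKM in WT on PEG, 31.6, 10.8 and 14.3 FPKM in OE on control medium, and 59, 245 and 138 FPKM in WT on control medium. The highest value of OE on PEG, in library 4, exceeded the lowest value of WT on control medium, in library 1. Its means and SDs were 31 ± 30.9 FPKM in OE on PEG, 6.87 ± 1.96 FPKM in WT on PEG, 18.9 ± 11.1 FPKM in OE on control medium and 147 ± 93.1 FPKM in WT on control medium (n = 3 each).

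Potri.001G122100.v3.1 had a like spread. It had 2.24, 3.42 and 12.5 FPKM in OE on PEG, 0.788, 2.81 and 1.24 FPKM in WT on PEG, 21.6, 6.67 and 9.36 FPKM in OE on control medium, and 25, 76.1 and 44.9 FPKM in WT on control medium. Its difference from WT on control medium was -1.89 in OE on control medium and -4.19 in WT on PEG, which rested on 8, 30 and 14 reads. Potri.004G023200.v3.1 went the other way, with a difference of -2.49 in OE on control medium and -2.38 in WT on PEG. It had 0.699, 0.703 and 3.61 FPKM in OE on PEG, 2.31, 1.28 and 2.6 FPKM in WT on PEG, 3.6, 0.762 and 1.65 FPKM in OE on control medium, and 10.5, 23 and 12.8 FPKM in WT on control medium. Its 3 lowered groups overlapped, at 8 to 40 reads a library.

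**Figure D3:**
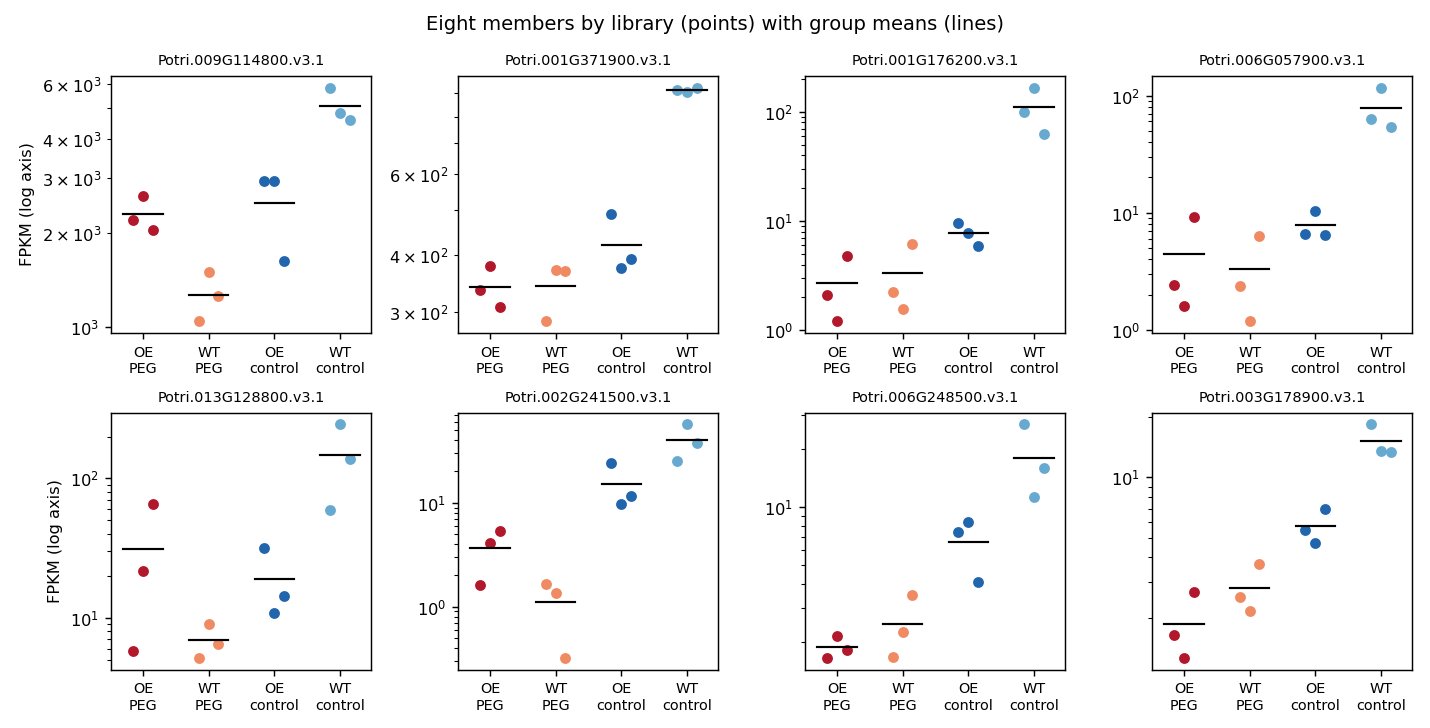
FPKM of 8 members in each library (points, log axis) with the group mean (line), for OE on PEG, WT on PEG, OE on control medium and WT on control medium from left to right. The WT libraries on control medium are the highest in each panel apart from Potri.013G128800.v3.1, where 65.5 FPKM in OE on PEG exceeds 59 FPKM in WT on control medium.

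How the members behaved when OE roots were put on PEG was not fixed directly by the rule, although the rule used both groups: it took genes low in OE on control medium and set a floor on OE on PEG. The median difference of OE on PEG from OE on control medium was -0.29 over members, beside -0.05 over all genes tested. It ran from -1.78 to 0.82, with 106 members within 0.5 unit of OE on control medium, 15 at least 1 unit lower and 4 at least 0.5 unit higher. OE on PEG lay below OE on control medium in 131 members and at or above it in 36, for which no share over all genes is given here. In 42 members every OE library on PEG was below every OE library on control medium, where 10.7% of all genes tested were, and in 1 member every one was above, where 6.45% were.

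The limma test called 5 members lower in OE on PEG than in OE on control medium, where it called 0.537% of all genes tested, and 0 members higher, where it called 1.54%. With limma-voom on recovered reads 2 members were called lower and 0 higher, for which no share over all genes is given here. The count of 5 depended on single libraries: it was 1 without library 1 of OE on control medium, 2 without library 1 or library 3 of OE on PEG, 3 without library 2 of WT on PEG or library 3 of WT on control medium, 8 without library 2 of WT on control medium, 11 without library 4 of OE on PEG and 15 without both of the last 2.

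By size, the leading member of these 5 was Potri.002G241500.v3.1. It had 1.61, 4.11 and 5.33 FPKM in OE on PEG, 1.66, 1.35 and 0.32 FPKM in WT on PEG, 24.1, 9.69 and 11.7 FPKM in OE on control medium, and 25.2, 57 and 38 FPKM in WT on control medium. The difference between the OE groups was -1.78 (SE 0.414, limma adjusted p 0.0494), with no overlap between the OE libraries on the media. This call was lost in 15 of 20 alternatives, with adjusted p from 0.0341 to 0.233 over all of them.

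Potri.006G248500.v3.1 and Potri.003G178900.v3.1 followed. Potri.006G248500.v3.1 had 1.66, 2.16 and 1.83 FPKM in OE on PEG against 7.43, 8.4 and 4.11 FPKM in OE on control medium (difference -1.36, SE 0.297, limma adjusted p 0.0372, with 0.0151 to 0.138 over the alternatives). Its WT libraries had 1.69, 2.27 and 3.52 FPKM on PEG and 26.9, 11.3 and 15.9 FPKM on control medium. The OE libraries on PEG were close to the WT libraries on PEG, and the OE libraries on control medium lay between these and WT on control medium. Potri.003G178900.v3.1 had 1.65, 1.26 and 2.69 FPKM in OE on PEG against 5.46, 4.69 and 6.99 FPKM in OE on control medium (difference -1.24, SE 0.213, limma adjusted p 0.00978, with 0.0051 to 0.05 over the alternatives). In WT it had 2.55, 2.16 and 3.71 FPKM on PEG and 18.4, 13.5 and 13.4 FPKM on control medium. In both genes no OE library on PEG overlapped the OE libraries on control medium. The first of these calls held in 10 of 20 alternatives and the second in all 20.

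The calls with the smallest differences were Potri.001G093300.v3.1 and Potri.004G175100.v3.1, which are named to complete the 5. Potri.001G093300.v3.1 had 2.76, 2.31 and 1.66 FPKM in OE on PEG against 5.15, 5.72 and 3.97 FPKM in OE on control medium (difference -0.88, SE 0.183, limma adjusted p 0.029, with 0.021 to 0.229 over the alternatives). Its WT libraries had 1.94, 2.89 and 2.28 FPKM on PEG and 16.7, 12.6 and 11 FPKM on control medium. Potri.004G175100.v3.1 had 11, 12.9 and 15.6 FPKM in OE on PEG against 21.9, 19.9 and 18.8 FPKM in OE on control medium (difference -0.59, SE 0.13, limma adjusted p 0.038, with 0.0157 to 0.161 over the alternatives). Its WT libraries had 8.63, 10.1 and 10.2 FPKM on PEG and 48.2, 46.4 and 38.7 FPKM on control medium. In both genes the OE libraries on the media did not overlap, and the OE libraries on control medium were far below the WT libraries on control medium. The first of these calls held in 11 of 20 alternatives and the second in 7 of 20.

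Members with a deeper fall in WT also stood lower in OE on PEG relative to OE on control medium. Among the 12 members with a WT difference of -3 or below, the median difference between the OE groups was -1.14. It was -0.57 among the 56 members between -3 and -2, and -0.18 among the 99 members above -2. The responses in OE and WT share no library, and they correlated at 0.61 (Pearson) over the 167 members, and also at 0.61 over the 24976 genes tested, so the relation was not particular to the members, among whom the bounds of the rule also tie the groups to each other. Genes are not independent points here, since all of them come from the same 12 libraries.

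On PEG itself the genotypes stood close together over the members, within the floor set by the rule. The median of OE on PEG minus WT on PEG was 0.16 over members, against 0.08 over all genes tested, with a range of -0.71 to 2.28. The member median was 0.07 without library 4 of OE on PEG and 0.09 without library 1 of WT on PEG. OE on PEG was above WT on PEG in 112 members and at or below it in 55, again with no share over all genes beside it. In 82 members it lay above WT on PEG and below OE on control medium. The limma test called 11 members higher in OE than WT on PEG (6.59% of members), where it called 9.19% of all genes tested, and 1 lower, where it called 5.3%. Leaving out a single library brought the 11 down to 7 (library 3 of OE on PEG), 6 (library 4 of OE on PEG), 4 (library 1 of WT on PEG) or 5 (library 3 of WT on PEG). The floor of the rule bears on this comparison, so the counts are a description.

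The following genes were picked after their values were seen. Potri.005G232400.v3.1 had 13.8, 18.1 and 29.4 FPKM in OE on PEG against 8.77, 7.89 and 7.58 FPKM in WT on PEG, and 17.7, 17.8 and 16.5 FPKM in OE on control medium against 44.1, 53.2 and 56 FPKM in WT on control medium. Its OE levels on the media overlapped, while in WT the media were far apart. The member with the highest difference, 2.28, was Potri.017G018100.v3.1, with 7.51, 4.07 and 17.4 FPKM in OE on PEG against 0.89, 2.3 and 0.115 FPKM in WT on PEG, the last of these being a single read. It had 8.89, 4.48 and 9.1 FPKM in OE on control medium and 8.07, 44.3 and 11.6 FPKM in WT on control medium. The genotypes overlapped on control medium, where library 2 of WT was far above every other library. The member lower in OE than WT on PEG was Potri.017G074000.v3.1, with 2.85, 3.08 and 5.26 FPKM in OE on PEG against 5.73, 5.97 and 8.14 FPKM in WT on PEG. It had 7.07, 7.95 and 6.82 FPKM in OE on control medium and 22, 13.2 and 19.6 FPKM in WT on control medium, and it lay nearest to the rule's floor.

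Over the members, some libraries of different groups deviated from their group means together, while correlations with the WT libraries on PEG ran only from -0.31 to 0.25. The lowest were -0.31 between library 1 of the WT groups and -0.3 between library 3 of them, against 0.1 and -0.01 over all genes tested. The deviation of library 4 of OE on PEG from its group mean correlated with that of library 2 of WT on control medium at 0.67 over the 167 members, and at 0.32 over all genes tested. With library 1 of WT on control medium it correlated at -0.72, against -0.32 over all genes tested. With library 5 of OE on control medium it correlated at 0.48 and with library 2 of that group at -0.54, against 0.34 and -0.25 over all genes tested. With the WT libraries on PEG the correlations were 0.18, -0.08 and -0.06, and those of library 2 of WT on control medium with the same libraries were 0.25, -0.17 and 0. Within a group the deviations of a gene cancel out. Opposite correlations with libraries of the same group, such as -0.72 and 0.67 or -0.54 and 0.48, are therefore not separate associations. These groups share no library, and the points share the same libraries throughout, so the values are descriptions. The median deviation over members was 0.32 for library 4 of OE on PEG and 0.24 for library 2 of WT on control medium, where the medians over all genes tested were -0.02 and -0.03.

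**Figure D4:**
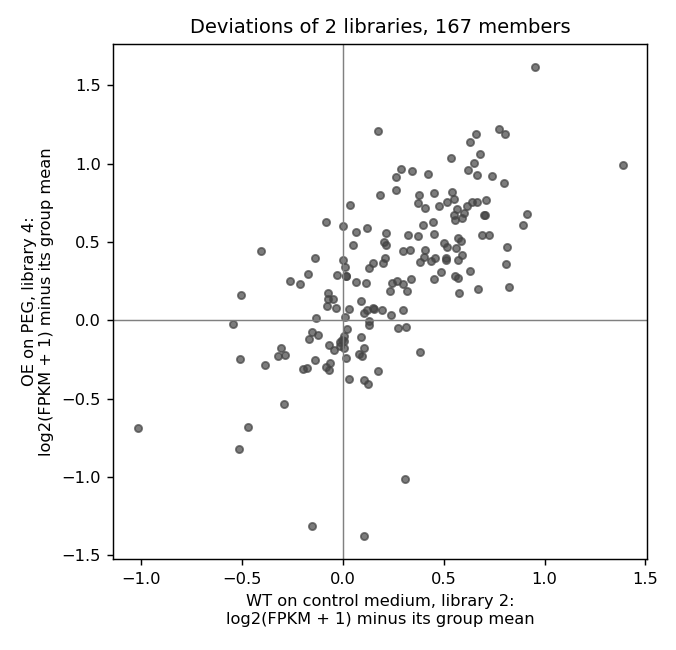
Each point is 1 of the 167 members; the axes give log2(FPKM + 1) minus the group mean for library 2 of WT on control medium (horizontal) and library 4 of OE on PEG (vertical). Most points lie in the upper right, and the correlation is 0.67.

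In 89 members (53.3%) both of these libraries were the highest of their groups, against 14.9% of the genes tested. As the rule favours genes with high values in these groups, this share is only a description. These 89 had median differences from WT on control medium of -1.26 in OE on control medium and -2.04 in WT on PEG, and the other 78 had -1.26 and -1.55. Their median recovered gene length was 1179 bases, against 1600 bases in the other 78. Potri.013G128800.v3.1 is among the 89. Potri.009G114800.v3.1 is not, and there library 4 of OE on PEG was the lowest of its group and library 1 of WT on control medium the highest. The part of depth, RNA quality or growth of these plants in this pattern was not tested.

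Several members carried neighbouring identifiers. In the Potri scheme the digits before G give the chromosome and those after it run along the chromosome. Of the 167 members, 15 stood next to another member in the list, in 8 pairs, and no pair had equal recovered lengths. The members were found in all 19 chromosome blocks, apart from 5 with identifiers outside them, with 28 (16.8%) in block 001, which held 11.8% of the genes that reached 5 FPKM.

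The longest run was in block 001, from Potri.001G175800.v3.1 to Potri.001G176200.v3.1. Potri.001G176000.v3.1 had 11.3, 10.9 and 27.4 FPKM in OE on PEG, 11.8, 16.7 and 26.4 FPKM in WT on PEG, 48.7, 86.2 and 30.7 FPKM in OE on control medium, and 292, 428 and 203 FPKM in WT on control medium. Potri.001G176100.v3.1 had 59.5, 62.2 and 52.8 FPKM in OE on PEG, 32.8, 57 and 45.4 FPKM in WT on PEG, 70.2, 82.5 and 54.2 FPKM in OE on control medium, and 221, 192 and 163 FPKM in WT on control medium. With Potri.001G176200.v3.1 these are 3 members in a row, with recovered lengths of 1271, 1118 and 1138 bases. They shared the low level outside WT on control medium but not its depth: the mean of OE on control medium was 18%, 35.9% and 7.09% of that in WT on control medium for the genes in number order, and that of WT on PEG was 5.96%, 23.5% and 3.02%.

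At the near end of the run, Potri.001G175800.v3.1 was also a member, with means of 1.31 FPKM in OE on PEG, 0.581 FPKM in WT on PEG, 1.71 FPKM in OE on control medium and 6.65 FPKM in WT on control medium. The identifier between, Potri.001G175900.v3.1, averaged 0.453, 0.394, 0.611 and 2.55 FPKM in the same groups. It met every bound except the minimum level. Of the genes on either side, Potri.001G175700.v3.1 was under 0.1 FPKM in every library, and the next ones did not share the pattern. Potri.001G175600.v3.1 averaged 18.6, 15.7, 17.8 and 17.7 FPKM in these groups, and Potri.001G176500.v3.1 averaged 5.76, 1.57, 1.91 and 1.93 FPKM. Whether reads were shared between similar neighbouring copies was not tested, so the split of reads among the genes of the run is uncertain.

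**Figure D5:**
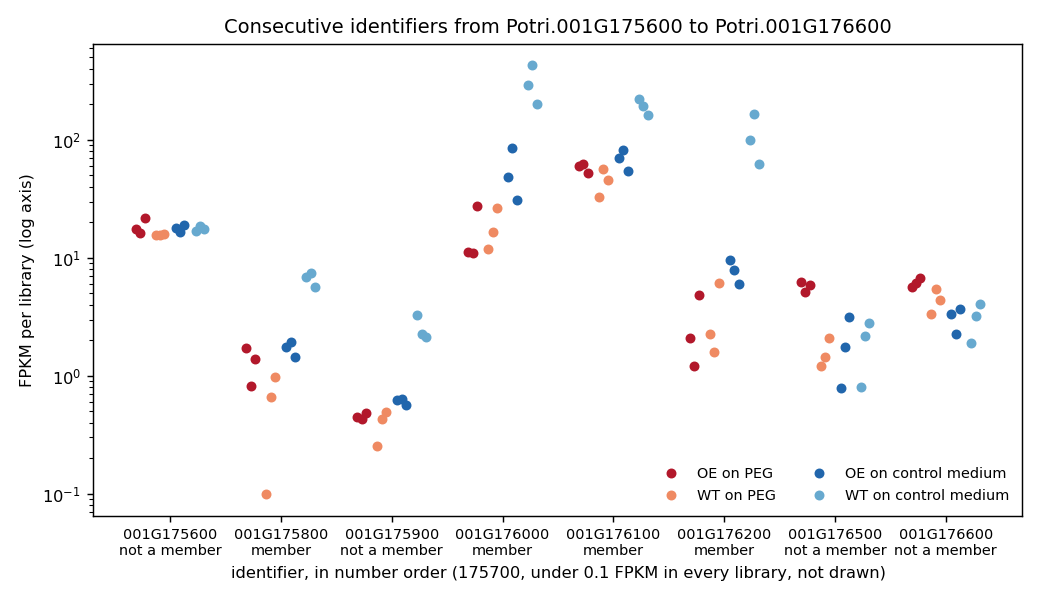
FPKM in each library (points, log axis) for identifiers from Potri.001G175600 to Potri.001G176600 in number order, with OE on PEG, WT on PEG, OE on control medium and WT on control medium from left to right within each gene. The 5 identifiers from Potri.001G175800 to Potri.001G176200 are highest in WT on control medium, and the drawn ones on either side are not; Potri.001G175700, under 0.1 FPKM in every library, is not drawn.

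A further pair, Potri.006G057900.v3.1 and Potri.006G058000.v3.1, was among the most strongly lowered. Potri.006G058000.v3.1 had 0.148, 0.348 and 1.53 FPKM in OE on PEG, 0.654, 0.363 and 0.983 FPKM in WT on PEG, 2.2, 2.02 and 0.839 FPKM in OE on control medium, and 11.9, 22.2 and 10.9 FPKM in WT on control medium. Its mean was 11.2% of that in WT on control medium in OE on control medium and 4.44% in WT on PEG, close to the 10.1% and 4.23% of its neighbour. The recovered lengths of the pair were 1736 and 1754 bases.

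The remaining pairs named here joined genes of unlike level. Potri.011G049100.v3.1 had 18.7, 29.5 and 21.2 FPKM in OE on PEG, 12, 16.8 and 12.9 FPKM in WT on PEG, 48.6, 67.2 and 29.6 FPKM in OE on control medium, and 174, 146 and 120 FPKM in WT on control medium. Its neighbour Potri.011G048800.v3.1, the shortest member at 210 bases, had 2.86, 1.65 and 6.34 FPKM in OE on PEG, 0.901, 1.28 and 3.25 FPKM in WT on PEG, 13.3, 12.7 and 7.75 FPKM in OE on control medium, and 25, 30.1 and 24.5 FPKM in WT on control medium. In both genes the OE libraries on PEG were below those on control medium without overlap, and OE on control medium lay between WT on PEG and WT on control medium. The shorter gene had only 2, 3 and 8 reads in WT on PEG.

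Potri.016G034800.v3.1 had 64.9, 58.3 and 83.5 FPKM in OE on PEG, 89.2, 84.9 and 107 FPKM in WT on PEG, 86.2, 71.8 and 119 FPKM in OE on control medium, and 218, 205 and 205 FPKM in WT on control medium. Potri.016G034600.v3.1 had 3.66, 3.1 and 5.21 FPKM in OE on PEG, 2.16, 3.41 and 3.1 FPKM in WT on PEG, 5.56, 4.32 and 10.1 FPKM in OE on control medium, and 12.8, 14 and 14.9 FPKM in WT on control medium. On PEG every OE library was below every WT library for the more abundant gene, and the genotypes overlapped for the other.

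Members tended to be short among the expressed genes, with a median recovered length of 1354 bases against 1776 bases for the 17044 genes that reached 5 FPKM. Their lengths ran from 210 to 4811 bases. Since short genes collect fewer reads at a given FPKM, their values are the less precise.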

How the data were processed

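RNA of 12 root libraries in 4 groups of 3 was analysed, with groups taken from the tissue label. The deposited values were judged to be FPKM, since they are whole multiples of a step per gene and library; the headers name no unit, and reads and fragments cannot be told apart. Per the submitters' processing notes, Bowtie2 2.2.3 and HISAT2 2.1.0 were used, without stated roles. No counter or annotation is named, and the build used is likewise not given in the sources used here. Reads were recovered as FPKM × length × library total, with 99.99% of 370737 values above 0 whole within 0.01 read.

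limma 3.58.1 in R 4.3.3 was fitted with an intensity trend to log2(FPKM + 1) of the 24976 genes that reached 1 FPKM in no fewer than 3 libraries, with 4 group means over 12 libraries (8 residual degrees of freedom), two-sided, with Benjamini-Hochberg adjustment and a threshold of 0.05. Differences on this scale understate changes of low genes, and p-values measure the spread between libraries, which may be technical. The fit and the recovery of reads were tested on simulated data. The members and the tests were chosen with earlier results of these data known. Named members follow a rule: highest in WT on control medium, largest difference in either defining comparison, called between the OE groups, or numbered next to another member. Product classes, tissue markers, promoters and proteins were not analysed here, for want of an annotation. Deviations of same-numbered libraries correlated at -0.23 to 0.26 over all genes tested (12 pairs), and those of other libraries at -0.32 to 0.34. The highest same-numbered value joined library 1 of WT on control medium and library 1 of OE on PEG (0.6 over the members). The lowest joined library 2 of the control medium groups (-0.52 over the members). The values went in both directions and the labels give no pairing, so libraries were not paired.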

Additional observations from a re-analysis of the deposited data

Results flagged for a closer look

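The PEG response of the members differed between the genotypes by the limma interaction test in 102 of 167 members, all with a more positive response in OE, where 3.5% of all genes tested were called in this direction. This is what marks the set for a closer look, but the rule itself nearly fixes it: a gene low in OE on control medium, low in WT on PEG and not much lower in OE on PEG has a positive interaction by construction, and the count gives no support to a difference. The median interaction was 1.5 over members and -0.01 over all genes tested. The count was 65 without library 1 of WT on PEG and 76 without library 3 of that group. It was 72 without library 2 of WT on control medium, 74 without library 3 of that group and 82 without library 4 of OE on PEG. With 3 libraries a group, no group was large enough for a test of a single outlying library. The libraries named above as standing apart were therefore described without a test.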

How the results depend on the processing

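The fall thresholds decided the size of the set: 352 genes met the rule at -0.75 and 24 at -1.5, against 167 at -1. The set held 133 to 238 genes when 1 library was left out. Counts with WT on PEG or OE on control medium lower than WT on control medium stayed within 1.5 times of 162 and 152 in every alternative run, with 154 to 165 and 112 to 160 when 1 library was left out. In OE on PEG against OE on control medium, the 5 lower members were 3 with median-ratio or upper-quartile scaling or only the 2 groups compared, 2 with limma-voom, 1 with no filter on low values, 15 without both library 2 of WT on control medium and library 4 of OE on PEG (an alternative chosen after seeing the data), and 1 to 11 when 1 library was left out; higher members numbered 0 in each of these. In OE against WT on PEG, the 11 higher members were 7 with median-ratio scaling or no filter, 5 with limma-voom and 4 to 13 when 1 library was left out. The 1 lower member was 2 with median-ratio scaling, 3 with limma-voom or without both of those libraries, 0 with no filter and 0 to 2 when 1 library was left out. Members called by the interaction ran from 65 to 105 when 1 library was left out. The median difference between the OE groups ran from -0.41 to -0.26 and that between genotypes on PEG from 0.07 to 0.28. The cause of these shifts was not tested. With the replicate number as a block, which is not supported by a pairing of the samples, calls were 1 lower in OE on PEG against OE on control medium, 7 higher and 2 lower in OE against WT on PEG, and 61 by the interaction. For single named genes, 1025 of 1100 values kept their direction and call and 75 kept their direction only. These values came from 55 pairs of gene and comparison, of which 10 lost a call in some alternative. Most pairs were falls that the rule itself used. Their direction was largely fixed by the choice of members, so the share kept is only a description. Low reads limit the members with under 10 reads in a library.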
